A study of Mus musculus with 6 samples.

Results

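The genes described here encode voltage-gated sodium and calcium channels and the subunits that go with them. They were chosen by name: a gene counted when a probe set of the array named it alone and its symbol began with Cacna, Cacnb or Cacng, or was Scn, a number and a or b. This gave 35 of 18194 genes, 24 of calcium channels and 11 of sodium channels, read by 85 probe sets. Where several probe sets read a gene, the one brightest on average over the arrays stands for it, and 25 of the 35 had a mean signal of at least 89 and are called kept. The other 10 are called dim. Cacna1f, at a mean of 87.4, lay just under that limit, and Cacna1c, at 240.0, was the kept gene nearest to it.

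Voltage-gated sodium channels open when a neuron depolarises and carry the upstroke of the action potential. A large alpha subunit forms the pore, and small beta subunits tune its gating and its place in the membrane. Voltage-gated calcium channels turn the same depolarisation into calcium entry, which drives transmitter release, bursting and gene expression. Their alpha1 subunit is the pore, alpha2delta and beta subunits bring it to the membrane, and several proteins named as gamma subunits act mainly on AMPA-type glutamate receptors.

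The data are signals of 6 microarrays, each hybridised with total RNA of 1 frontal cortical lobe from 1 mouse aged 21 days, labelled as male and of mixed C57BL/6 and 129 background. The mutants were a Dab1 KO, a Reln KO and an Apoer2-Vldlr KO, called reeler models here after the title of the series, and a Vldlr KO and an Apoer2 KO. The WT, both single receptor mutants and the Apoer2-Vldlr KO came from the cross of mice heterozygous for both receptor genes, and the Dab1 KO and Reln KO came from crosses of their own. Reelin (Reln) is a secreted protein that guides neurons to their layers. It is sensed through Vldlr and Apoer2, whose gene the array calls Lrp8, and the signal passes inside the cell through Dab1. The Vldlr KO, Apoer2 KO and WT arrays are called comparison arrays. Which exons were deleted, and whether in all cells, is not given in the sources used here.

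No genotype had a second array, so precision is limited by how few arrays there are. Each test below takes arrays of different genotypes as the replicates of a class, and its p measures only the spread between these 6 arrays. Reln read 79.9 on the Reln KO array and at least 1498 on the others. Lrp8 read 13.7 and 4.2 on the Apoer2-Vldlr KO and Apoer2 KO arrays, and at least 342.4 on the others. Vldlr read 126.8 and 217.9 on the Apoer2-Vldlr KO and Vldlr KO arrays, and at least 472.5 on the others. Dab1 read 478.5 on the Dab1 KO array and 516.4 to 626.0 on the others, a small gap. The female-specific RNA Xist read 124.9 on the Apoer2 KO array and at least 3368 on the others, which goes against the male label of 5 arrays, and the pituitary hormone gene Gh read 3705 on the Apoer2 KO array and at most 32.4 elsewhere. Cortical pyramidal markers were bright on all arrays: all 5 with a probe set were kept, with summed signals of 7202 to 8119 in reeler models and 7172 to 7556 on comparison arrays. Markers of cerebellar granule cells were present too, although the label is frontal cortex. All 12 with a probe set were lower on every reeler array than on any comparison array, as were 8.49% of all genes tested. Of the 12, 11 were kept and Zic2 was dim. The sums were 4174 to 5578 in reeler models and 12867 to 16008 on comparison arrays.

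Between the classes, no channel gene changed past the threshold. In limma's test across 11578 kept genes, 15 genes passed a Benjamini-Hochberg adjusted p of 0.05, which is 0.13% of those tested, and 0 of the 25 kept channel genes were among them. The lowest adjusted p of a channel gene was 0.230, for Cacna1a. At an unadjusted p of 0.05, Cacna1a, Cacna1d and Cacng5 were lower and Cacna1h was higher in reeler models. That is 3 lower genes of 25, against 5.71% of all genes, and 1 higher gene, against 5.26% (11% in either direction). Over all 16 alternatives run, the number of channel genes past the adjusted threshold was 0, and the lowest adjusted p of any channel gene ran from 0.131 to 0.812. The median log2 difference of the channel genes was -0.04, against 0.01 over all genes tested, and single genes lay between -0.47 and 0.32. The difference was above 0 for 11 of 25 channel genes, against 52.2% of all genes. Leaving out 1 array moved the difference by over 1.5 times or turned its sign for 21 of the 25 genes, all but Cacna1a, Cacna1d, Cacna1h and Cacng5. Of the 7 kept sodium channel genes it was above 0 for 1, with a median of -0.17, and of the 18 kept calcium channel genes for 10, with a median of 0.02.

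**Figure D1:**
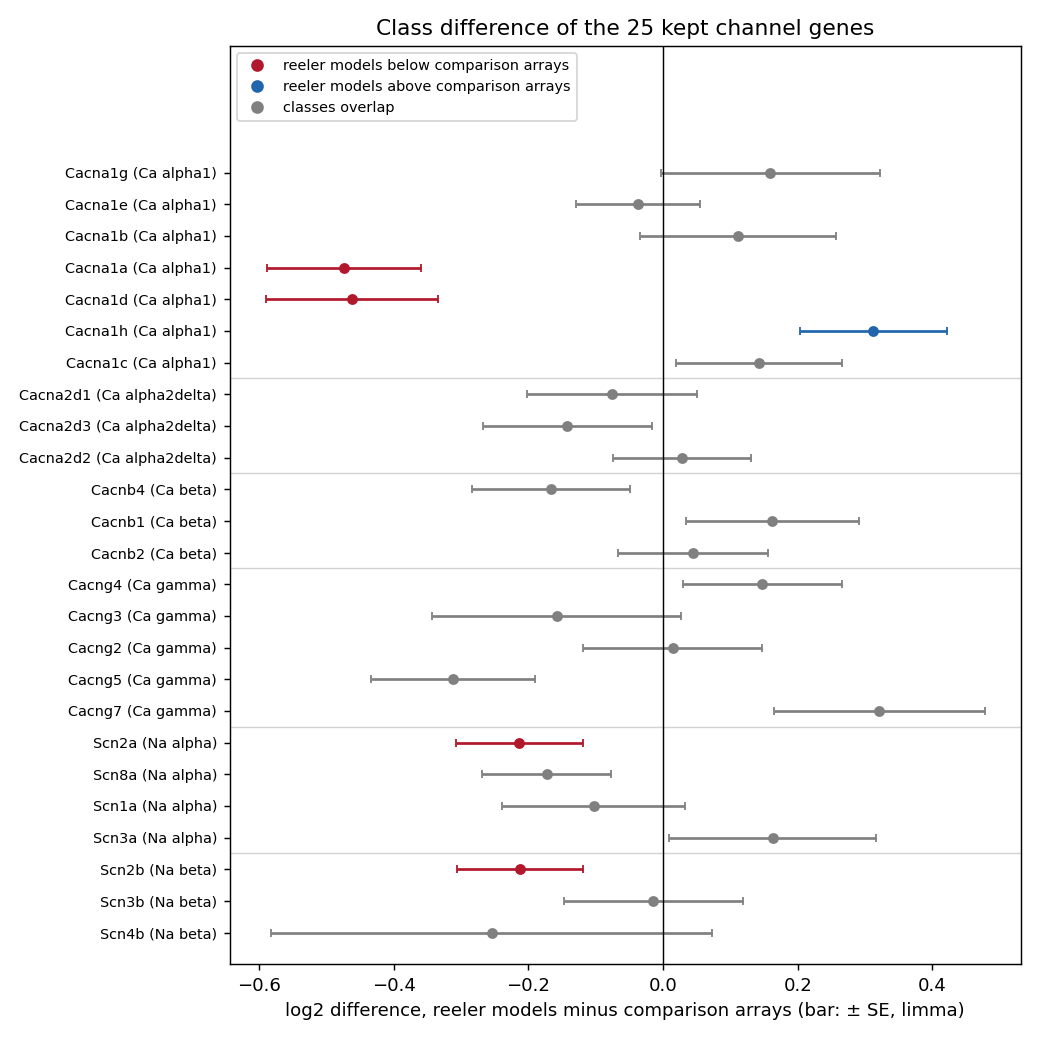
Log2 difference of reeler models minus comparison arrays (x axis, log2 of signal plus pseudocount) for the 25 kept channel genes (rows, by family), with bars of 1 SE from limma (n = 3 arrays each). Cacna1a at -0.47 and Cacna1d at -0.46 lie furthest left, Cacna1h and Cacng7 at 0.31 and 0.32 furthest right, and the colours mark the 5 genes whose classes did not overlap.

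The order of the arrays gives the same picture when counted by gene. For 5 of 25 genes the 3 reeler arrays lay outside the range of the 3 comparison arrays, against 17.6% of all genes, so the share among channel genes was close to that of any gene. Over their 55 kept probe sets it was 13, of which 2 lay above and 11 below, against 17.6%, 7.95% and 9.70% of all kept probe sets. Cacna1a, Cacna1d, Scn2a and Scn2b lay below (8.49% of all genes did) and Cacna1h above (9.08% did). Leaving out arrays loosens this count by its construction: it was 8 without the Apoer2-Vldlr KO array (28.4% of all genes), 12 without the Vldlr KO array (32.1%) and 16 with WT as the only comparison array (56.3%).

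Among the sodium channel pores, Scn2a is the main early alpha subunit of excitatory neurons. It read 2202, 1764 and 2161 on the Dab1 KO, Reln KO and Apoer2-Vldlr KO arrays, against 2397, 2357 and 2329 on the Vldlr KO, Apoer2 KO and WT arrays. All reeler arrays were lower than all comparison arrays, with the Reln KO array furthest down, and the log2 difference was -0.21 (SE 0.09, limma's adjusted p = 0.457). Of its 4 kept probe sets 3 showed the same separation, at -0.21, -0.23 and -0.32, and the dimmest stood at -0.14 with overlap. Without the Reln KO array the difference was -0.11.

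Scn8a encodes the alpha subunit concentrated at the axon initial segment and the nodes of mature axons. Its signals were 1396, 1164 and 1346 on the Dab1 KO, Reln KO and Apoer2-Vldlr KO arrays, and 1564, 1363 and 1481 on the Vldlr KO, Apoer2 KO and WT arrays. The Reln KO array was again lowest, the classes overlapped, and the log2 difference was -0.17 (SE 0.10, limma's adjusted p = 0.538). Its 3 other kept probe sets gave -0.17, with separated classes, -0.01 and 0.04, so they did not share a direction. Without the Reln KO array the difference was -0.096. With all its probe sets averaged, a dim one of mean 11.8 included, it was -0.040.

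Scn1a is the alpha subunit best known from fast-spiking interneurons and from severe childhood epilepsy when lost in humans. It had 875.9, 626.1 and 828.7 on the Dab1 KO, Reln KO and Apoer2-Vldlr KO arrays, against 744.7, 896.3 and 851.0 on the Vldlr KO, Apoer2 KO and WT arrays. By this probe set only the Reln KO array stood below the comparison arrays, and the log2 difference of -0.10 (limma's adjusted p = 0.797) became 0.04 without that array. Its dimmer kept probe set read 326.3, 208.0 and 313.6 on the reeler arrays, against 275.4, 332.8 and 424.4 on the comparison arrays, in the same order. There the classes overlapped, Reln KO was lowest, WT was highest and the log2 difference was -0.26. Scn3a, the alpha subunit typical of the embryonic brain, read 367.3, 322.9 and 305.4 on the Dab1 KO, Reln KO and Apoer2-Vldlr KO arrays, and 367.4, 284.0 and 239.2 on the Vldlr KO, Apoer2 KO and WT arrays. Here WT was the lowest of the 6, and the log2 difference of 0.16 did not pass (limma's adjusted p = 0.702). It was 0.031 without the WT array and 0.31 without the Vldlr KO array.

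The beta subunits are small membrane proteins with an immunoglobulin fold. Scn2b, which is linked to the pore by a disulfide bond, read 2338, 1899 and 2321 on the Dab1 KO, Reln KO and Apoer2-Vldlr KO arrays, against 2448, 2523 and 2606 on the Vldlr KO, Apoer2 KO and WT arrays. The classes did not overlap and the log2 difference was -0.21 (SE 0.09, limma's adjusted p = 0.455), but its 2 dimmer kept probe sets overlapped, at 0.18 and -0.26. Without the Reln KO array the difference was -0.12, and with averaged probe sets -0.096. Scn3b, which binds without that bond, stood at 1247, 904.2 and 1256 on the Dab1 KO, Reln KO and Apoer2-Vldlr KO arrays, and at 1220, 1141 and 1050 on the Vldlr KO, Apoer2 KO and WT arrays, with a log2 difference of -0.01. The Reln KO array alone was low, and without it the difference was 0.14.

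Scn4b, the beta subunit tied to resurgent sodium current in Purkinje cells and abundant in the striatum, varied more between arrays than any other kept member. Its signals were 718.1, 431.8 and 782.2 on the Dab1 KO, Reln KO and Apoer2-Vldlr KO arrays, against 434.3, 851.1 and 1133 on the Vldlr KO, Apoer2 KO and WT arrays. WT was the highest of the 6, and the Reln KO and Vldlr KO arrays, which belong to different classes, read almost the same low value. Means were 644.0 ± 186.6 in reeler models and 806.3 ± 351.7 on comparison arrays (SD, n = 3 arrays each). The log2 difference of -0.25 (SE 0.33, limma's adjusted p = 0.790) became 0.03 without the WT array. A single probe set reads this gene. Purkinje markers, 8 of which had a kept probe set, summed to 15994 to 19305 in reeler models and 17704 to 19128 on comparison arrays. Of these 8, 2 were lower and 1 was higher on every reeler array, against 8.49% and 9.08% of all genes. Striatal markers, of which 4 were kept, summed to 3491 to 4402 in reeler models and 3122 to 3353 on comparison arrays, with 2 higher on every reeler array. The part of both lists in the Scn4b values was not tested.

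Scn2b and Scn4b are neighbours on chromosome 9 with no other protein-coding gene between them in the RefSeq table. For both, the Reln KO array was lowest and WT highest. Both starts are shown, with that of Scn2a, because these are the sodium channel genes with separated classes or the widest spread. Each sequence is the 250 bases before the first listed start, from RefSeq's mouse build GRCm38.p6, plus strand, and capitals mark CG dinucleotides. They lie at chr2:65620519-65620768 for Scn2a, chr9:45117626-45117875 for Scn2b and chr9:45138374-45138623 for Scn4b.
Scn2a: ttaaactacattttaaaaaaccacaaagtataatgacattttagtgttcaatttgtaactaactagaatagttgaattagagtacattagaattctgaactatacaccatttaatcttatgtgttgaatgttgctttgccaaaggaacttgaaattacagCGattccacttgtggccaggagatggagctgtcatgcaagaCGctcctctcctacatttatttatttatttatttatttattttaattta
Scn2b: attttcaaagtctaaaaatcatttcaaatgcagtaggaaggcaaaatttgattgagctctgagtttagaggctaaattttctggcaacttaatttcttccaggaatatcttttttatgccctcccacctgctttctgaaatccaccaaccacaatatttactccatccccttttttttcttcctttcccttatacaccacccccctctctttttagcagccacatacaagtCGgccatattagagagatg
Scn4b: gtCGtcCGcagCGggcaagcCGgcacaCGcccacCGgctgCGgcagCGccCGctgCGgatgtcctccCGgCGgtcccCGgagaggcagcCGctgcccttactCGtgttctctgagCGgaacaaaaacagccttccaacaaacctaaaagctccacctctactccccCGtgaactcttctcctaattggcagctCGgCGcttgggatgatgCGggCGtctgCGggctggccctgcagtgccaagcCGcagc
The window of Scn2a is poor in G and C, at 29.6% with 2 CG dinucleotides, as is that of Scn2b, at 38.4% with 1. The window of Scn4b is rich, at 66.0% with 23. Over the 19 kept members with a promoter entry the median was 62.0% G and C, against 52.0% over 27025 genes. The GC box GGGCGG, searched on both strands, was found in 9 of the 19 windows (47.4%), against 32.9% of all genes, and the TATA box TATAAA in 1 (5.26%), against 13.0%. None of the 3 printed windows holds either. These are descriptions of the sequence only.

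Of the calcium channel pores, Cacna1a had the lowest class difference of all channel genes. It encodes the P/Q-type channel that triggers transmitter release and is abundant in the cerebellum. Its signals were 526.3, 417.5 and 411.0 on the Dab1 KO, Reln KO and Apoer2-Vldlr KO arrays, against 613.2, 624.8 and 666.1 on the Vldlr KO, Apoer2 KO and WT arrays. Every reeler array was below every comparison array, with means of 451.6 ± 64.8 in reeler models and 634.7 ± 27.8 on comparison arrays (SD, n = 3 arrays each), 1.39-fold lower (log2 difference -0.47, SE 0.11, limma's adjusted p = 0.230). Its dimmer kept probe sets ran the same way, with larger log2 differences at lower signals. The first read 185.7, 55.0 and 87.6 on the Dab1 KO, Reln KO and Apoer2-Vldlr KO arrays, against 292.1, 179.0 and 307.7 on the Vldlr KO, Apoer2 KO and WT arrays, with a small overlap. The second read 97.3, 58.0 and 17.3, against 158.0, 154.9 and 128.1 on the comparison arrays in the same order, with none. Its mean of 102.3 passed the limit of 89 through the comparison arrays, since only 97.3 of its reeler values exceeded 89. Its value of 17.3 lay under the highest bacterial control probe set of that array, at 31.2. Both dimmer probe sets had log2 differences of -1.15. The mean over all Cacna1a probe sets, a dim one of mean 21.8 included, gave -0.82 (limma's adjusted p = 0.146). Within the receptor cross, where only the Apoer2-Vldlr KO array stands for the reeler models, the difference was -0.59.

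The granule cell markers given above separated in the same direction as Cacna1a: 12 of 12 were below, the dim Zic2 included, against 8.49% of all genes. Gabra6, which encodes a GABA receptor subunit of granule cells, read 185.7, 251.5 and 106.6 on the Dab1 KO, Reln KO and Apoer2-Vldlr KO arrays, against 1248, 2015 and 1797 on the Vldlr KO, Apoer2 KO and WT arrays. The part of these markers in the Cacna1a values was not tested. In RNA of a whole piece of tissue, fewer cells of a type and less RNA per cell cannot be told apart.

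**Figure D2:**
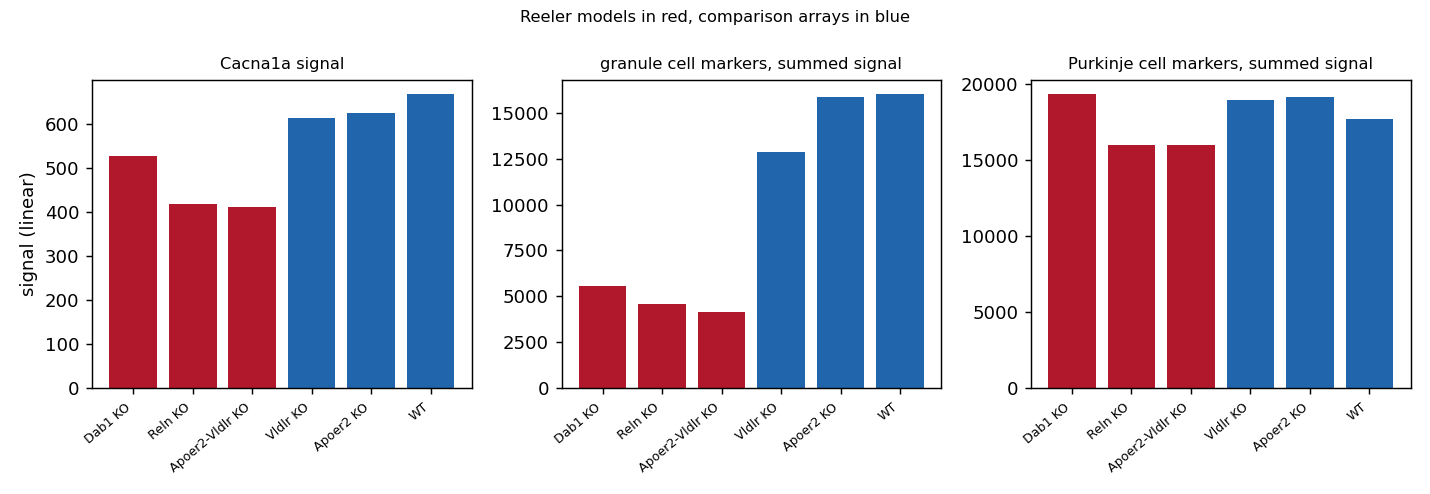
Signal on a linear scale (y axes) on each of the 6 arrays for Cacna1a and for the summed markers of cerebellar granule and Purkinje cells, with reeler models in red and comparison arrays in blue. Cacna1a lies between 411.0 and 526.3 in reeler models and between 613.2 and 666.1 on comparison arrays, and the granule sums separate in the same way, while the Purkinje sums overlap. Pcp4 and Calb1 are the brightest genes in the Purkinje sums. Of the 8 Purkinje markers, Car8 and Rora were lower and Dner was higher on every reeler array than on any comparison array.

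Cacna1d and Cacna1c encode L-type pores, which couple depolarisation to gene expression and, for Cacna1d, to pacemaking. Cacna1d read 290.6, 228.6 and 275.9 on the Dab1 KO, Reln KO and Apoer2-Vldlr KO arrays, against 369.0, 421.7 and 335.7 on the Vldlr KO, Apoer2 KO and WT arrays. The classes did not overlap and the log2 difference was -0.46 (SE 0.13, limma's adjusted p = 0.294), but a second probe set of nearly equal mean gave 0.04. That one read 258.1, 302.8 and 322.7 on the Dab1 KO, Reln KO and Apoer2-Vldlr KO arrays, against 274.5, 301.7 and 277.4 on the Vldlr KO, Apoer2 KO and WT arrays, so the lower signal rests on 1 of 2 probe sets, and averaging them gave -0.21. Cacna1c read 246.6, 268.7 and 243.0 on the Dab1 KO, Reln KO and Apoer2-Vldlr KO arrays, and 251.1, 193.8 and 236.9 on the Vldlr KO, Apoer2 KO and WT arrays. Its 2 probe sets disagreed in direction, with log2 differences of 0.14 and -0.24.

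The T-type pores Cacna1h and Cacna1g open near rest and support burst firing. Cacna1h read 301.6, 365.3 and 363.1 on the Dab1 KO, Reln KO and Apoer2-Vldlr KO arrays, against 271.3, 269.9 and 269.0 on the Vldlr KO, Apoer2 KO and WT arrays. It was higher on every reeler array, with means of 343.3 ± 36.2 in reeler models and 270.1 ± 1.2 on comparison arrays (SD, n = 3 arrays each) and a log2 difference of 0.31 (SE 0.11, limma's adjusted p = 0.388). Within the receptor cross the difference was 0.39. Cacna1g read 637.0, 947.4 and 632.1 on the Dab1 KO, Reln KO and Apoer2-Vldlr KO arrays, and 739.2, 617.7 and 592.6 on the Vldlr KO, Apoer2 KO and WT arrays. The Reln KO array alone was high, and the log2 difference of 0.16 became -0.03 without it.

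The remaining kept pores are Cacna1b, the N-type channel of presynaptic endings, and Cacna1e, the R-type channel. Cacna1b read 721.9, 694.6 and 562.6 on the Dab1 KO, Reln KO and Apoer2-Vldlr KO arrays, and 719.7, 609.4 and 504.5 on the Vldlr KO, Apoer2 KO and WT arrays, with WT lowest and a log2 difference of 0.11. Its probe set may bind related transcripts, by its name ending, and the others gave -0.02, 0.15 and -0.11. Cacna1e varied least among the pores by the probe set used: its signals were 694.0, 708.9 and 622.0 on the Dab1 KO, Reln KO and Apoer2-Vldlr KO arrays, and 724.9, 672.7 and 680.3 on the Vldlr KO, Apoer2 KO and WT arrays, with the highest 1.17 times the lowest. Its dimmer kept probe set was higher on every reeler array, with 130.7, 139.9 and 115.5 on the Dab1 KO, Reln KO and Apoer2-Vldlr KO arrays, against 109.5, 113.7 and 109.0 on the Vldlr KO, Apoer2 KO and WT arrays (log2 difference 0.17), so its probe sets differed in direction.

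**Figure D3:**
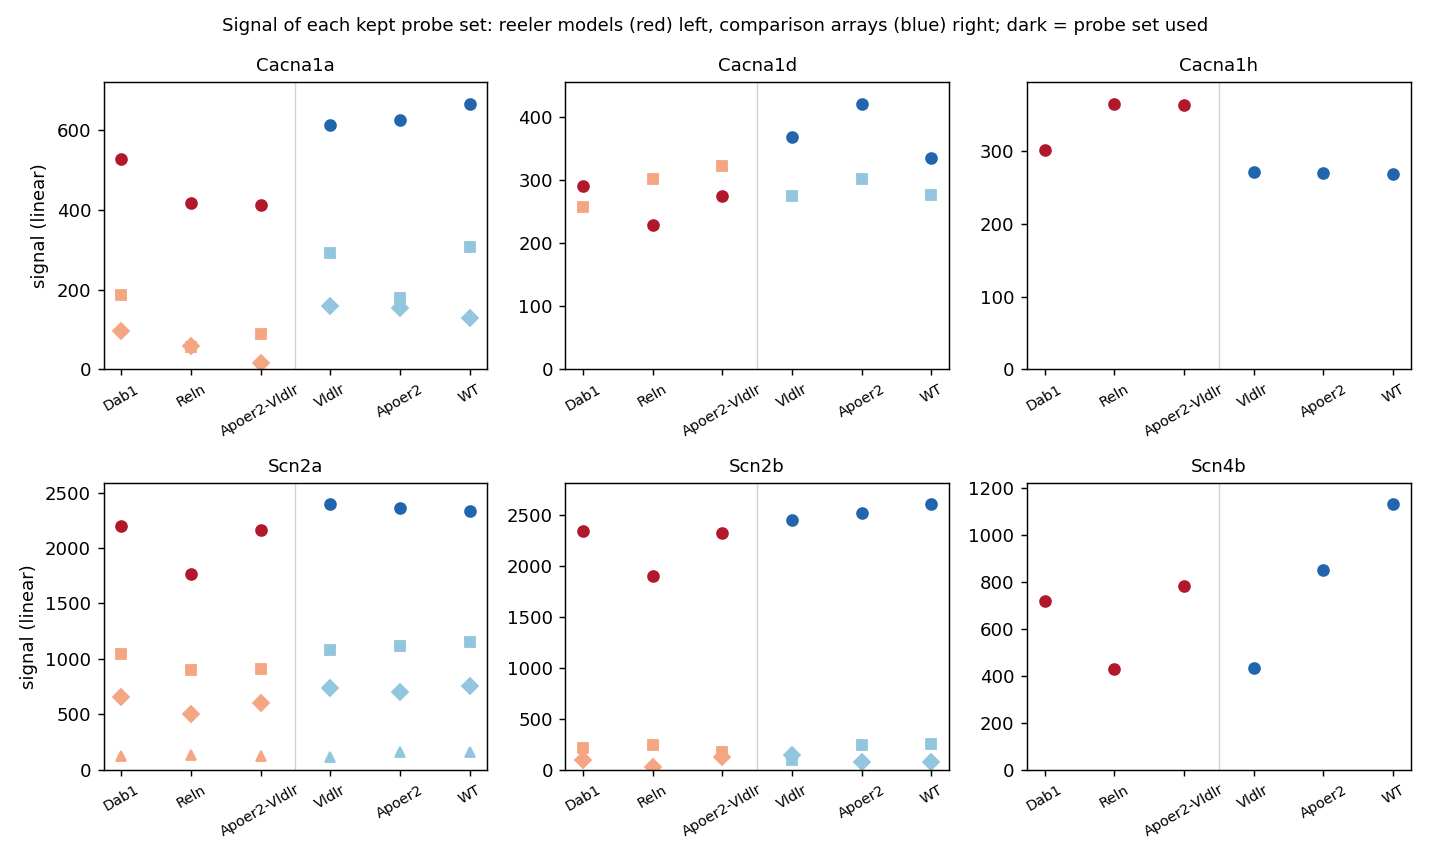
Signal on a linear scale (y axes, from 0) on each array for every kept probe set of 6 channel genes, with reeler models in red to the left, comparison arrays in blue to the right, and the probe set used in dark colour. The probe sets of Cacna1a and most of Scn2a lie lower on the left, those of Cacna1d differ from each other, and Scn4b is lowest on the Reln KO and Vldlr KO arrays.

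The alpha2delta proteins sit outside the membrane, carry the pore to the surface and, for the products of Cacna2d1 and Cacna2d2, bind gabapentin. Cacna2d1 read 1688, 1375 and 1522 on the Dab1 KO, Reln KO and Apoer2-Vldlr KO arrays, and 1923, 1518 and 1420 on the Vldlr KO, Apoer2 KO and WT arrays, a log2 difference of -0.08 with overlap. Its second probe set was lower on every reeler array, with 435.8, 428.1 and 534.4 on the Dab1 KO, Reln KO and Apoer2-Vldlr KO arrays, against 667.0, 591.5 and 680.6 on the Vldlr KO, Apoer2 KO and WT arrays (log2 difference -0.45). The third gave -0.06, so the probe sets shared a direction and not a size. Cacna2d3 read 1542, 1122 and 1348 on the Dab1 KO, Reln KO and Apoer2-Vldlr KO arrays, and 1637, 1405 and 1370 on the Vldlr KO, Apoer2 KO and WT arrays, with the Reln KO array lowest. Cacna2d2 stayed within 540.7 to 672.2 over the 6 arrays, with a log2 difference of 0.03.

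The beta subunits of calcium channels bind the pore from inside and release it to the membrane. Cacnb4, whose loss gives the ataxic lethargic mouse, read 1321, 1068 and 1159 on the Dab1 KO, Reln KO and Apoer2-Vldlr KO arrays, and 1476, 1149 and 1374 on the Vldlr KO, Apoer2 KO and WT arrays. All 3 of its probe sets had lower means in reeler models, with log2 differences of -0.17, -0.25 and -0.40, and all overlapped. Cacnb1 read 576.3, 520.7 and 654.1 on the Dab1 KO, Reln KO and Apoer2-Vldlr KO arrays, and 606.8, 484.0 and 468.8 on the Vldlr KO, Apoer2 KO and WT arrays. All 4 of its probe sets had higher means in reeler models, between 0.16 and 0.31, again with overlap. Cacnb2 ranged from 455.6 to 580.0 with a log2 difference of 0.04. None of the 3 passed, the lowest adjusted p in limma being 0.612.

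Of the gamma genes, Cacng2, Cacng3 and Cacng4 encode auxiliary proteins that carry AMPA receptors to synapses, and Cacng2 is the gene of the stargazer mouse. Cacng2 read 748.5, 628.8 and 648.7 on the Dab1 KO, Reln KO and Apoer2-Vldlr KO arrays, and 690.7, 774.7 and 552.3 on the Vldlr KO, Apoer2 KO and WT arrays, a log2 difference of 0.01. Its second probe set was separated, with 527.7, 324.8 and 452.5 on the Dab1 KO, Reln KO and Apoer2-Vldlr KO arrays, against 635.2, 574.6 and 593.0 on the Vldlr KO, Apoer2 KO and WT arrays (log2 difference -0.47). The direction for Cacng2 therefore depends on the probe set. Cacng3 read 925.9, 538.7 and 729.8 on the Dab1 KO, Reln KO and Apoer2-Vldlr KO arrays, and 945.2, 749.2 and 724.1 on the Vldlr KO, Apoer2 KO and WT arrays, with only the Reln KO array low. Cacng4 stood between 689.4 and 931.8, highest on the Dab1 KO array, where its second probe set read 690.6, against 308.5 to 425.5 on the other 5 arrays.

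Cacng5 and Cacng7 encode the second group of AMPA receptor partners. Cacng5 read 334.1, 341.6 and 398.9 on the Dab1 KO, Reln KO and Apoer2-Vldlr KO arrays, against 499.3, 465.0 and 392.1 on the Vldlr KO, Apoer2 KO and WT arrays. The Apoer2-Vldlr KO and WT values crossed, and the log2 difference was -0.31 (SE 0.12, limma's adjusted p = 0.424), while its second probe set gave 0.16 and averaging them -0.076. With WT as the only comparison array it was -0.13. Cacng7 read 353.3, 398.6 and 273.9 on the Dab1 KO, Reln KO and Apoer2-Vldlr KO arrays, and 310.0, 231.2 and 259.5 on the Vldlr KO, Apoer2 KO and WT arrays. Its log2 difference of 0.32 was the highest of all channel genes and did not pass (SE 0.16, limma's adjusted p = 0.488), and the second probe set ran the other way at -0.19. Averaging them gave 0.064, and the cross as a covariate 0.043. In all, 18 members had several kept probe sets, and for 9 of them all were on 1 side of 0.

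Several of the 10 dim genes, though not all, are known mainly from other tissues. Cacna1s and Cacng1 belong to the skeletal muscle channel, Cacna1f is the L-type pore of photoreceptors, and Scn9a, Scn10a and Scn11a serve peripheral sensory neurons. Cacna1s read at most 23.1 and Scn10a at most 33.2, and neither exceeded the highest bacterial control of its array on any of the 6. Cacng1 exceeded it on 1 array, Cacng6 on 3 and Scn9a on 4. Cacna1f (73.7 to 107.6), Cacna2d4 (44.9 to 112.2), Cacng8 (66.4 to 100.8), Scn7a (43.9 to 82.3) and Scn11a (49.7 to 100.2) exceeded it on all 6 and were dim without being at background. Of the markers of those tissues, 2 of 5 for skeletal muscle, 0 of 4 for photoreceptors and 1 of 3 for sensory ganglia reached a mean of 89. Over all genes it was 11578 of 18194. The 1 for sensory ganglia was Tac1, at a mean of 1948.5, while Prph and Trpv1 stood at 80.7 and 50.6.

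Several members lie side by side on a chromosome in the RefSeq table. Scn3a and Scn2a are adjacent on chromosome 2, as are Scn1a, Scn9a and Scn7a. Of these 5 neighbours, Scn9a and Scn7a were dim, and among the kept ones only Scn2a had separated classes. Cacng1, Cacng4 and Cacng5 adjoin on chromosome 11, with Cacng1 dim, and Cacng7, Cacng8 and Cacng6 on chromosome 7, with only Cacng7 kept. Scn10a and Scn11a, both dim, adjoin on chromosome 9.

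Set against the WT array, channel genes were far from it about as seldom as genes at large on each mutant array. With 1 array each these are folds with no test, and all 5 comparisons share the WT array. On the Dab1 KO array 1 of 25 genes was 1.5-fold or more away, against 6.36% of all genes: Scn4b at -0.64 (log2). On the Reln KO array 3 were, against 10.5%, namely Scn4b at -1.34, Cacna1a at -0.64 and Cacna1g at 0.65. The Apoer2-Vldlr KO array had 1, against 5.53%, with Cacna1a at -0.66. The Vldlr KO array had 1, against 4.48%, with Scn4b at -1.33. The Apoer2 KO array had 0, against 2.37%, and its furthest genes were Cacng2 at 0.47 and Scn4b at -0.40.

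Below that limit, the next furthest genes were as follows. On the Dab1 KO array they were Scn3a at 0.56 and Cacna1b at 0.49. On the Reln KO array Cacng7 stood at 0.57 and Cacna1d at -0.50. On the Apoer2-Vldlr KO array Scn4b stood at -0.52, Cacnb1 at 0.46 and Cacna1h at 0.40. On the Vldlr KO array Scn3a stood at 0.57, Cacna1b at 0.49 and Cacna2d1 at 0.43. Differences above 0 were found for 17 of 25 genes on the Dab1 KO array, against 51.0% of all genes, 11 on the Reln KO array, against 49.5%, and 14 on the Apoer2-Vldlr KO array, against 52.9%. They numbered 20 on the Vldlr KO array, against 50.1%, and 16 on the Apoer2 KO array, against 51.6%. The WT array was the lowest of the 6 for 7 genes, against 19.9% of all genes, and the highest for 3, Cacna1a, Scn2b and Scn4b, against 18.0%.

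**Figure D4:**
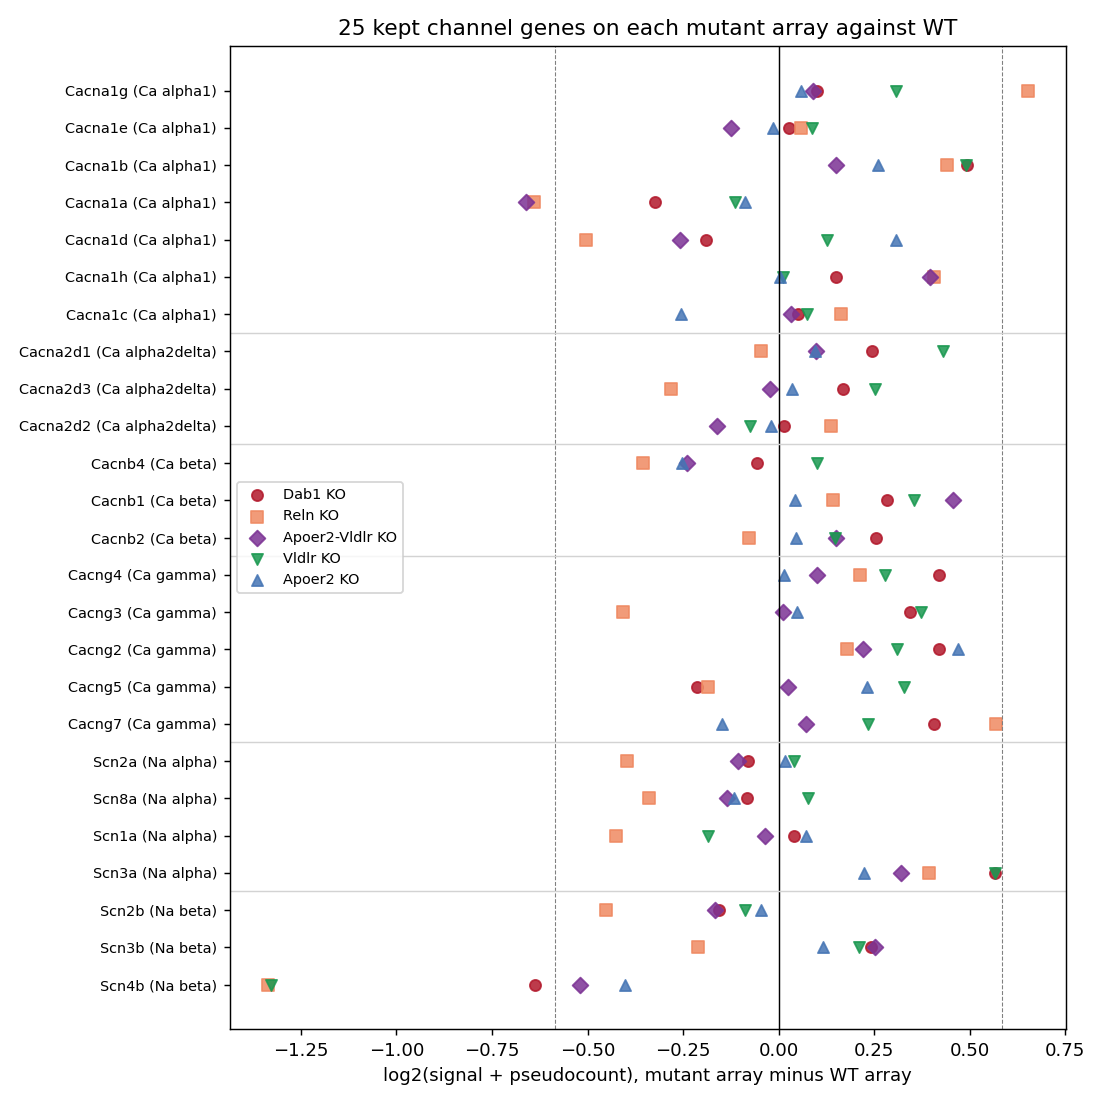
Log2 difference of each mutant array from the WT array (x axis) for the 25 kept channel genes (rows, by family), with 1 point per mutant array and dashed lines at 1.5-fold. Most points lie within the dashed lines, and Scn4b at -1.34 on the Reln KO and -1.33 on the Vldlr KO array lies furthest out.

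The Reln KO and Vldlr KO arrays stood at the ends of the order more often than for genes at large. The Reln KO array was the lowest of the 6 for 12 of 25 channel genes (48.0%), against 25.2% of all genes. These 12 held 6 of the 7 kept sodium channel genes, all but Scn3a, and 6 of 18 calcium channel genes. The Vldlr KO array was the highest of the 6 for 9 of 25 (36.0%), against 13.6%, and the lowest for 0, against 15.4%. Over all 55 kept probe sets of the members, which share genes and arrays, the Reln KO array was lowest for 23, against 23.4% of all kept probe sets, and the Vldlr KO array highest for 16, against 14.3%. When each gene's probe sets were averaged instead, the counts of genes were 8 for the Reln KO array, against 22.7%, and 8 for the Vldlr KO array, against 13.1%. There is 1 array behind each of these, so the genotype, the animal and the array cannot be told apart. On the Reln KO array the median log2 difference from WT was -0.08 for channel genes and -0.0048 for all genes, and on the Vldlr KO array it was 0.15 and 0.00099.

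**Figure D5:**
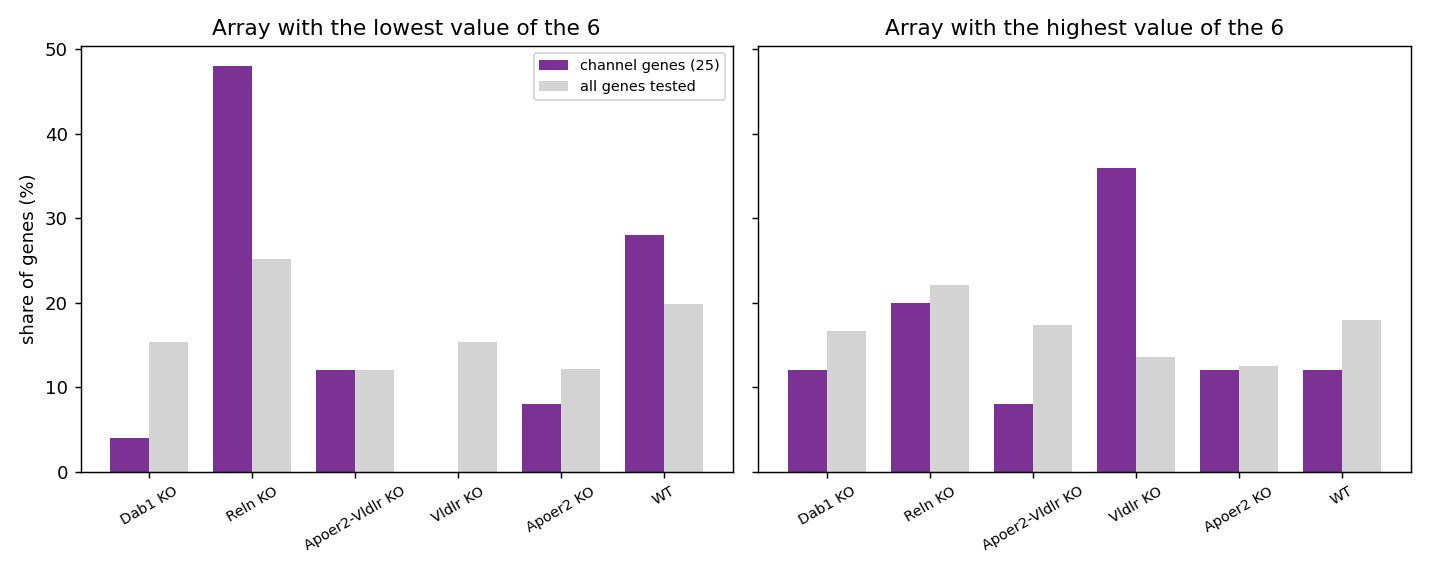
Share of genes (y axis, percent) for which each array (x axis) gave the lowest value (left) or the highest value (right) of the 6, for the 25 kept channel genes and for all genes tested. The bars of channel genes exceed those of all genes for the Reln KO array on the left, at 48.0% and 25.2%, and for the Vldlr KO array on the right, at 36.0% and 13.6%.

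Among the 4 arrays of the receptor cross, which share their breeding, the Apoer2-Vldlr KO array was lowest for 8 of 25 channel genes, against 24.9% of all genes, and highest for 4, against 31.2%. The 8 included Cacna1a, Cacna1d, Scn2a, Scn2b and Scn8a, and the 4 were Cacna1h, Cacnb1, Cacnb2 and Scn3b. The Vldlr KO array was highest of these 4 for 14 channel genes, against 24.1%, and the WT array lowest for 12, against 28.7%. No channel gene moved 1.5-fold in opposite directions on loss of one receptor with and without the other. Only 1 channel gene was 1.5-fold from WT on the Vldlr KO array, and 0 were on the Apoer2 KO array. The share of all genes under this rule is not given, so the count is not read against genes at large.

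The proteins that anchor, carry or regulate these channels gave a median log2 difference of 0.01 over 22 kept genes of the 25 with a probe set. Past the adjusted threshold was 1 of the 22, against 0.13% of all genes tested. The classes did not overlap for 4 of the 22, against 17.6% of all genes. Of these 4, 3 lay below and 1 above, against 8.49% and 9.08%. Fgf14, a partner of sodium channel alpha subunits that is known for ataxia when mutated in humans, read 719.7, 702.2 and 679.3 on the Dab1 KO, Reln KO and Apoer2-Vldlr KO arrays, against 1116, 1232 and 1142 on the Vldlr KO, Apoer2 KO and WT arrays. It fell by 0.71 on the log2 scale (SE 0.08, limma's adjusted p = 0.0134), with no overlap. The call was lost without any 1 of 4 arrays: limma's adjusted p was 0.113 without the Apoer2-Vldlr KO array, 0.0581 without Vldlr KO, 0.137 without Apoer2 KO and 0.0983 without WT. It was also lost with WT as the only comparison array (0.437), with the cross as a covariate (0.236) and with its probe sets averaged (0.0849), at log2 differences of -0.68, -0.75 and -0.56. The granule cell markers separated in the same direction as Fgf14, with 12 of 12 lower, the dim Zic2 included, against 8.49% of all genes. Their summed signals were 4174 to 5578 in reeler models and 12867 to 16008 on comparison arrays, and their part in the Fgf14 values was not tested. Next lowest was Rims1, which holds presynaptic calcium channels near vesicles, with 1518, 1136 and 1359 on the Dab1 KO, Reln KO and Apoer2-Vldlr KO arrays, against 1932, 1695 and 1719 on the Vldlr KO, Apoer2 KO and WT arrays (log2 difference -0.41, limma's adjusted p = 0.292). Highest were Rimbp2, a linker between such channels and Rims1, at 0.45 (limma's adjusted p = 0.446), and Rem2, a small GTPase that inhibits calcium channels, at 0.39 (limma's adjusted p = 0.549). On both the Reln KO array was the highest, with 1437 for Rimbp2 and 389.9 for Rem2, against 724.7 and 156.3 on the WT array, and without it the differences were 0.20 and 0.12. Ank3, the ankyrin that gathers sodium channels at the initial segment, read 1871, 1604 and 1754 on the Dab1 KO, Reln KO and Apoer2-Vldlr KO arrays, against 2296, 1978 and 1908 on the Vldlr KO, Apoer2 KO and WT arrays, separated but not past the threshold (log2 difference -0.24, limma's adjusted p = 0.433). The Reln KO array was the lowest of the 6 for 13 of these 22 genes, against 25.2% of all genes.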

How the data were processed

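RNA of 6 frontal cortical lobes was measured on 1 array each. The deposited table holds a linear intensity for each of 45101 probe sets. The submitters' processing notes name MAS5 and Affymetrix Expression Console, with no version numbers. After trimming 2% of values from both ends, array means were 249.4 to 249.5, so all arrays were scaled to a common level. The 27 bacterial control probe sets read at most 28.4 to 39.6 per array.

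Gene names came from the platform's annotation, in which 34958 probe sets named 1 gene, 932 several, and 9211 are unnamed here. All 35 channel genes matched RefSeq's mouse table by gene ID. That table's build need not be the array's, and it served for names, neighbours and promoter sequences. A gene was read by its brightest probe set on average, and genes with a mean of at least 89 were tested. The scale was log2(signal + 28.1), the pseudocount being the 25th percentile of the values, and fold changes on that scale understate those of dim genes. Signals of different probe sets were not tested against each other. They did serve to pick the probe set of a gene and the genes to name, and were summed for the marker lists. Where probe sets were averaged as an alternative, all those of a gene were taken, dim ones included.

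Reeler models were set against comparison arrays in R 4.3.3 by limma 3.58.1, using a prior trended on signal and Benjamini-Hochberg adjustment over all 11578 genes, after tests on simulated data. The residual holds genotype differences. Mutants against WT have no test. The rule for named genes took the 3 of highest signal and the extreme members of each family, the 6 lowest p-values, and the 2 highest and lowest per mutant, which covered all 25 kept genes, and the 2 highest and lowest regulators. Ank3, further genes in the comparisons with WT, and the promoters shown were chosen after their values were seen. The genes and lists were chosen with earlier results of these data known.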

Additional observations from a re-analysis of the deposited data

How the results depend on the processing

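No paired analysis was possible because each genotype has 1 array and no numbers are shared. Under every alternative run, 0 channel genes passed the adjusted threshold. The 15 genes passing over all genes became 9 with the cross covariate, 0 with WT as the only comparison array, and 1 to 23 when single arrays were left out. The 5 separated channel genes, against 17.6% of all genes, became 16 with WT as the only comparison array, against 56.3%. They were 6 to 12 when single arrays were left out, against 24.2% to 32.1%. The median of the channel genes ran from -0.088 to 0.028 in the class comparison, and that of the regulators ran from -0.12 to 0.043 when single arrays were left out.

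Of the channel genes, 25 kept their direction under either pseudocount, no filter, quantile normalization, no trend and without the Apoer2 KO array. Cacna1a, Cacna1d, Cacna1h, Cacna2d3, Cacnb1, Cacnb4, Cacng4, Cacng5, Cacng7, Scn2a, Scn2b, Scn3a and Scn8a kept it under every alternative. Among these, Cacna1d, Cacng5, Cacng7, Scn2b and Scn8a had kept probe sets that differed in direction, and no alternative used the other probe sets alone. With probe sets ending in _x_at last, Cacna1b was -0.020. With averaged probe sets, Cacna1c was -0.049, Cacna1e 0.068 and Cacng2 -0.19. With the cross covariate, Cacna1b was -0.10, Cacna1g -0.032, Cacna2d2 -0.13, Cacng2 -0.037, Scn1a 0.00075, Scn3b 0.14 and Scn4b 0.057. With WT as the only comparison array, Cacna2d1 was 0.10, Cacna2d2 -0.0039 and Scn3b 0.095. Without single arrays, Cacnb2 ran from -0.028 to 0.14, Cacng2 ran from -0.11 to 0.12, Cacna1g ran from -0.027 to 0.25, Cacna2d2 ran from -0.043 to 0.11, Cacng3 ran from -0.34 to 0.037, Scn1a ran from -0.19 to 0.039, Scn3b ran from -0.093 to 0.14, Cacna1e ran from -0.072 to 0.018, Cacna2d1 ran from -0.16 to 0.052, Cacna1b ran from -0.013 to 0.23, Scn4b ran from -0.63 to 0.034.

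Counts of channel genes 1.5-fold from WT moved as follows. On the Dab1 KO array the 1 gene became 2 with a pseudocount of 1, no filter, quantile normalization or averaged probe sets, and 0 against the mean of the comparison arrays or at 2-fold. On the Reln KO array the 3 genes became 5 with no filter or averaged probe sets and 1 at 2-fold. The median there was 0.057 with no filter and -0.22 against the mean of the comparison arrays. On the Apoer2-Vldlr KO array the 1 gene became 0 at 2-fold. On the Vldlr KO array the 1 gene became 2 with a pseudocount of 1 or quantile normalization and 3 with no filter, and on the Apoer2 KO array the 0 became 1 with no filter. At 2-fold, 120 of 11578 genes were that far from WT on the Dab1 KO array, 293 on Reln KO and 109 on Apoer2-Vldlr KO. Shares of all genes under the other settings are not given, so those counts are not read against genes at large. The no filter counts are out of 35 channel genes and add dim genes. The cause of the other changes was not tested. The 12 genes lowest on the Reln KO array and the 9 highest on the Vldlr KO array, of 25, became 14 and 10 of 35 with no filter. The shares of all genes there were 21.1% and 12.5%. Under the other settings the counts were 8 to 12 and 7 to 10 of 24 or 25, against 22.7% to 27.8% and 13.1% to 14.1%. These alternatives for the arrays at the ends of the order were chosen after the data had been seen. Those for single regulators, Fgf14 among them, were added then too.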
